A study of Mus musculus with 42 samples.

Results

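Goblet cells of the proximal colon were compared between mice that had lost the BMP receptor Alk3 (gene symbol Bmpr1a) from their Gli1+ stromal cells and mice that had kept it. The comparison rests on 4 of the 42 samples in the series, 2 libraries labelled GA3M2-Proximal and 2 labelled GWTM2-Proximal. GWTM2 mice carried Gli1-CreERT2 and the Muc2-mCherry reporter. GA3M2 mice carried both of these and Alk3 fl/fl in addition. Both groups were given tamoxifen on 5 consecutive days, and Muc2+ cells were sorted by their mCherry on day 30. The mice were 2 to 4 months old and of both sexes. CreERT2 was driven by Gli1, so the deletion was aimed at the stroma and not at the sorted epithelial cells. Whether 1 mouse or a pool gave each library is not stated.

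Goblet cells are the secretory epithelial cells that make intestinal mucus. They pack the gel-forming mucin MUC2 into granules together with proteins that bind, cut or crosslink it, and with trefoil, lectin and antimicrobial peptides. BMP ligands act on epithelial and stromal cells through type I receptors such as ALK3, which phosphorylate SMAD proteins, and BMP signaling is known to rise from the base of the crypt to its top. Gli1+ stromal cells lie around the crypts and supply both Wnt ligands and BMP antagonists to the epithelium.

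Each library held between 15879171 and 20783127 reads on genes, and the 10 genes with the most reads took 6.38% to 7.61% of them. Levels are normalized counts, which are reads divided by 1 size factor for each library. The GA3M2 replicate 2 library stood apart from the other libraries. The chi-square per degree of freedom of its reads against the controls was 163 and 162, against 54.3 and 85.6 for GA3M2 replicate 1 and 29.9 between the controls. GWTM2 replicate 1 held 21756 normalized counts of Xist and 0 of Ddx3y, while the other 3 libraries held at most 6.85 of Xist and at least 911 of Ddx3y, so sex was not balanced between the groups. Both control libraries were read-for-read the same as the controls tabulated with the proximal Smad4 knockout goblet cells, so those 2 comparisons share their controls.

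The goblet label was checked by ranking 14861 genes per kb of exon. Zg16, Klk1, Agr2 and Spink4, which encode a lectin, a kallikrein, a disulfide isomerase and a protease inhibitor of goblet granules, stood between rank 2 and rank 18 in every library. These are 4 of 14 goblet products ranked, and others stood far lower in GA3M2. Muc2 ranked 17 and 13 in the controls and 298 and 502 in GA3M2. Clca1 ranked 26 and 14 against 604 and 2363, and Ang4 140 and 50 against 1553 and 1500. Markers of all intestinal epithelium were all present (8 of 8, summed normalized counts 193869 to 288485). Car1, a carbonic anhydrase of absorptive colonocytes, was also among the top 54 in each library (ranks 13, 3, 54 and 20), while the colonocyte markers Car4 (ranks 5055, 1442, 4201 and 2162) and Aqp8 (6997, 5153, 5828 and 2498) ranked far lower.

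Stromal loss of Alk3 went with 5 genes that rose and 7 that fell in proximal goblet cells. Clca4b, Lyz2, Spp1, Apoe and Iqcn rose, and Muc2, Mptx1, Pcdh17, Cps1, Traf1, Tppp and Lbh fell. These 12 were 0.0899% of the 13346 genes tested (0.0375% higher and 0.0525% lower), called with limma on log2(normalized count + 1) at an adjusted p under 0.05 and a change of at least 2-fold. DESeq2 on the recovered reads called 431 genes, or 3.23% of those tested, 238 higher (1.78%) and 193 lower (1.45%), among them all of the 12. edgeR called 14 genes (0.105%; 0.045% higher and 0.0599% lower), again with all of the 12, and added Kcnf1 and the gene model Gm2245. At an unadjusted p under 0.05 and the same 2-fold limit, limma passed 911 genes (6.83%), 423 of them higher (3.17%) and 488 lower (3.66%). GWTM2 and GA3M2 values were fully separate in 52.1% of the genes tested, with GA3M2 higher in 26% and lower in 26.1%. An exact permutation test of 1 gene over 2 against 2 libraries cannot go below a p of 0.33. The p-values measure only the spread between these libraries, which may be technical. In sorted bulk cells, fewer cells of a type and less RNA per cell cannot be told apart. Adjusted p below come from limma unless another tool is named, and per-library values are in the order GWTM2 replicates 1 and 2, then GA3M2 replicates 1 and 2.

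The number of calls depended on single libraries. Without GA3M2 replicate 2, limma called 1 gene (Mptx1) and DESeq2 207, and without GA3M2 replicate 1 they called 1036 and 1026. Without GWTM2 replicate 1 limma called 82 genes and DESeq2 210, and without GWTM2 replicate 2 they called 31 and 124. The 238 genes that DESeq2 called higher differed from the control mean by a median of 1.66 on the log2 scale in GA3M2 replicate 1 and 2.46 in replicate 2, and 195 of them were past 2-fold in both. For the 193 lower genes the medians were 1.46 and 1.88, with 141 past 2-fold in both.

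**Figure D1:**
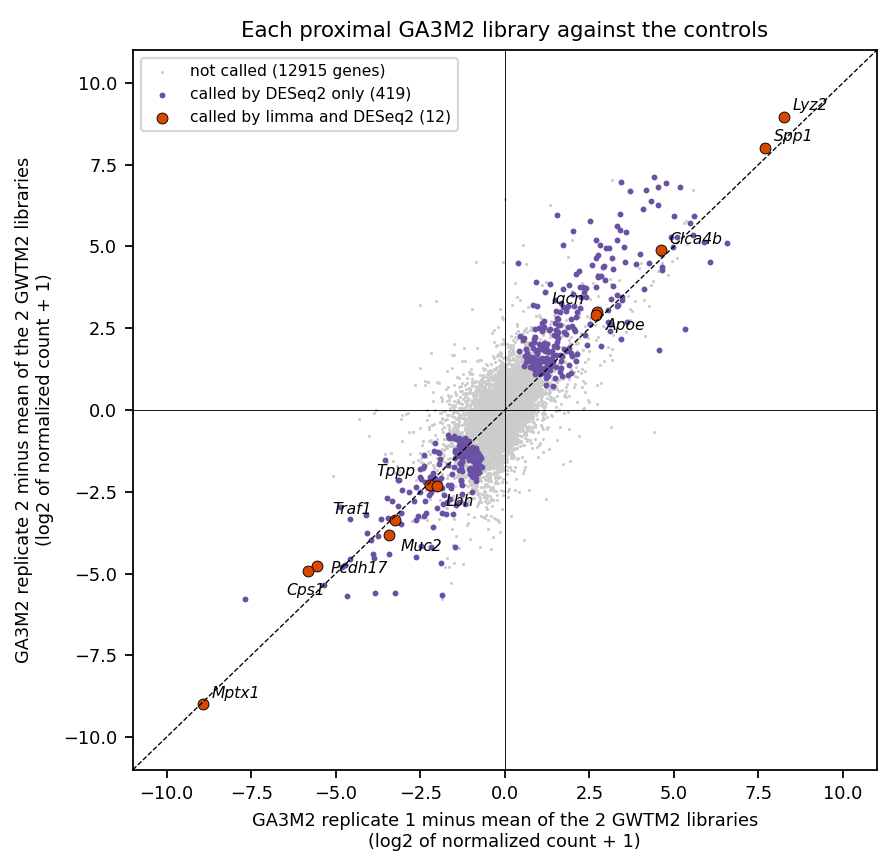
Difference of each proximal GA3M2 library from the mean of both GWTM2 libraries, as log2 of normalized count + 1, with replicate 1 on the horizontal and replicate 2 on the vertical axis; each point is 1 of 13346 tested genes and the dashed line marks equal values. The 12 genes called by limma (orange) were past 2-fold in both GA3M2 libraries, and 194 of the 238 genes that DESeq2 called higher lay farther from the controls in replicate 2.

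Promoter sequence is shown for the gel-forming mucin and for the genes with the strongest fall and a strong rise, as the 250 bases before the RefSeq start on GRCm38.p6, read on the coding strand. Capitals mark TATAAA (either strand) and, in Muc2, CAGCTG, the E-box letters that the goblet factor ATOH1 is known to bind. TATAAA occurs in 12.4% and CAGCTG in 13% of 32851 promoters of this length. The promoters lie at chr7:141690090-141690339 (+) for Muc2, chr1:174330268-174330517 (+) for Mptx1 and chr3:144932530-144932779 (-) for Clca4b.
Muc2: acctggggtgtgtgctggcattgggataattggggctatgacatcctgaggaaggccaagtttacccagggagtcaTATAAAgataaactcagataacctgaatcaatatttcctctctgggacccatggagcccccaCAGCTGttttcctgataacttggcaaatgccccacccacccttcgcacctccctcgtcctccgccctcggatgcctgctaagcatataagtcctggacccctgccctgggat
Mptx1: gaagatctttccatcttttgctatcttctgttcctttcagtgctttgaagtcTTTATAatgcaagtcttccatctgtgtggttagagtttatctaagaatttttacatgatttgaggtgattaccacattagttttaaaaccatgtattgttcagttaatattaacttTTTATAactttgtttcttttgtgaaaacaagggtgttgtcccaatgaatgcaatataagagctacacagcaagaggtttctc
Clca4b: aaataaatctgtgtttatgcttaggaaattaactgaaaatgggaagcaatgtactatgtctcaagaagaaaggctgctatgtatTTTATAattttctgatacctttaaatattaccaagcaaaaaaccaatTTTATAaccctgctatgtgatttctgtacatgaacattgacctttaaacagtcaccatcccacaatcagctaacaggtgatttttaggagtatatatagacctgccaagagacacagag
Muc2 held TATAAA at -174 and CAGCTG at -112 from the start. Mptx1 held TATAAA at -198 and -82, and Clca4b at -166 and -119. Of the other motifs searched on both strands, the kappa-B element (in 0.98% of promoters), TTCNNNGAA (7.02%) and TTTATNG (9.81%, which can overlap TATAAA) had no match in these 3 windows. These are matches of letters only.

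Muc2, the gel-forming mucin, fell by more than 8-fold in the sorted cells. It stood at 179572 and 224217 normalized counts in the controls and at 18753 and 14042 in GA3M2. The log2 fold change was -3.63 (SE 0.34, adjusted p = 0.0464). Per kb of exon, Muc2 ranked 17 and 13 of 14861 genes in the controls, and 298 and 502 in GA3M2. The gene lies at chr7:141690340-141754693 (+) on GRCm38. Muc2 drives the reporter by which the cells were sorted, and the part of the gate in this difference was not tested. Muc2 was lost from the calls without GWTM2 replicate 2 and without GA3M2 replicate 2, and its adjusted p ranged from 2.65e-42 to 0.0945 over the alternatives, with the 2 groups apart in all 4 libraries.

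Mptx1, a mucosal pentraxin of secretory cells in the deep crypt, fell almost to nothing. The controls held 1139.6 and 841 normalized counts and GA3M2 held 1.01 and 0.922, which is 1984 reads against 2. The ratio of the summed normalized reads was 1046 (95% interval 289 to 8643, counting error only). The fitted log2 fold change was -8.96 (SE 0.38, adjusted p = 0.00426), and the call held in every alternative run, with an adjusted p of at most 0.0315. Mptx1 lies at chr1:174330518-174332873 (+), and 17.9% of its 50-base windows also occur in the near copy Mptx2, which has no row in the table.

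Clca4b, a member of the calcium-activated chloride channel regulator family, rose from 266 and 145 to 4833 and 5826 normalized counts. The log2 fold change was 4.75 (SE 0.31, adjusted p = 0.0182), and the groups were far apart. It lies at chr3:144910921-144932529 (-), and 21% of its 50-base windows also occur in its neighbor Clca4a, so the split of reads between these copies is uncertain.

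Lyz2, Spp1 and Apoe, which encode lysozyme, the secreted glycoprotein osteopontin and an apolipoprotein, rose together. Lyz2 had no read in either control and 305 and 495 normalized counts in GA3M2. The GA3M2 mean was 129.8 times the mean 3-read floor of the control libraries (adjusted p = 0.0182, chr10:117277331-117282321, -). Spp1 had no read in either control and 204 and 258 in GA3M2, with a mean 75.03 times the same floor (adjusted p = 0.0208, chr5:104435118-104441050, +). Apoe was present in all libraries, at 89.6 and 87.9 against 589.8 and 717 (log2 fold change 2.86, SE 0.22, adjusted p = 0.0283, chr7:19696109-19699188, -). For Lyz2, 15.4% of 50-base windows also occur in Lyz1, the Paneth cell lysozyme, which has no row in the table.

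All 3 of these genes are also known from macrophages, and Lyz2 is on the macrophage marker list. The summed level of that list was 1376 and 992 in the controls and 2290 and 2827 in GA3M2 (normalized counts, Lyz2 included). Of its 18 members, 13 had a row and 9 were tested. Of the 9, 7 had a positive log2 fold change, and the lowest was -0.73. DESeq2 called 2 of the 9 higher, Lyz2 and C1qc, against 1.78% of all genes tested. Both had no read in the controls and passed the filter only through GA3M2, so their direction was fixed. Cd68, a lysosomal protein of macrophages, stood at 54.8 and 45.6 against 105 and 125 and passed the unadjusted limits. C1qc, a complement subunit, was at 0 in both controls and at 29.2 and 37.8 in GA3M2. Csf1r, the receptor that defines the lineage, was at 0.914 and 1.14 against 14.1 and 15.7, below the filter and so not tested. Adgre1, Fcgr1, Cd163, Aif1 and Cx3cr1 had no row. DESeq2 called 4 markers without GA3M2 replicate 1 and 1 without each other library. The part of macrophages in the rise of Lyz2, Spp1 and Apoe was not tested.

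The remaining called genes have roles in adhesion, signaling, metabolism and the cytoskeleton. Pcdh17, a protocadherin of cell contacts, fell from 591 and 972 to 15.1 and 26.7 normalized counts (log2 fold change -5.17, SE 0.40, adjusted p = 0.0283; chr14:84443563-84539002, +). Traf1, an adaptor of tumor necrosis factor receptors, fell from 262 and 273 to 27.2 and 24.9 (log2 fold change -3.31, SE 0.29, adjusted p = 0.0434; chr2:34941750-34961772, -). For both genes the libraries of a group lay close together beside the gap between the groups. Tppp, a tubulin polymerization-promoting protein, fell from 908 and 1114 to 214 and 204 (-2.26, SE 0.20, adjusted p = 0.0437; chr13:74009407-74035753, +). Lbh, a transcription cofactor known as a Wnt target, fell from 926 and 1002 to 238 and 190.0 (-2.18, SE 0.21, adjusted p = 0.0464; chr17:72918305-72941947, +). Iqcn, an IQ-motif protein, rose from 45.7 and 49.1 to 313 and 357 (2.79, SE 0.26, adjusted p = 0.0464). Kcnf1, a potassium channel subunit called by edgeR and DESeq2, stood at 493 and 608 against 107 and 117 (limma adjusted p = 0.0506).

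The secreted products of goblet cells mostly had a negative log2 fold change, but they did not move as 1 block. Of 14 products tested, limma called Muc2 lower, and DESeq2 called 4 lower (Muc2, Clca1, Ang4 and Fcgbp) and Retnlb higher. Their median log2 fold change was -0.67, against -0.003 over all genes tested, and 2 of the 14 were positive. Without overlap, 9 were lower (26.1% of all genes tested) and 1 was higher (26%). Clca1, the metalloprotease that cuts MUC2 in the mucus gel, stood at 60981 and 104695 in the controls and 5532 and 1643 in GA3M2 (log2 fold change -4.73, adjusted p = 0.0722, DESeq2 adjusted p = 3.13e-05). Ang4, a bactericidal ribonuclease, stood at 3360.4 and 7125 against 445 and 496 (-3.38, adjusted p = 0.051, DESeq2 adjusted p = 6.21e-19). Both genes were below either control in each GA3M2 library. Fcgbp, a mucus protein that binds MUC2, stood at 103564 and 121419 against 58101 and 28622 (-1.46, adjusted p = 0.249, DESeq2 adjusted p = 0.00305). With 1 library left out, the DESeq2 call of Fcgbp held only without GA3M2 replicate 1 (log2 fold change -1.97). Without GA3M2 replicate 2 its log2 fold change was -0.95.

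Other granule products missed both the limma and the DESeq2 limits or lay higher. Retnlb, the antibacterial resistin-like molecule, stood at 35195 and 9439 against 64422 and 63505 (1.81, adjusted p = 0.269, DESeq2 adjusted p = 0.0393), and the controls differed more from each other than the GA3M2 libraries did. With 1 library left out, DESeq2 called Retnlb only in the fit without GWTM2 replicate 1. Tff3, the trefoil peptide, stood at 21859 and 11789 against 17274 and 18824 (0.17, SE 0.34, adjusted p = 0.821). Zg16, the lectin that binds Gram-positive bacteria, stood at 89808 and 52834 against 69444 and 58156 (-0.12, SE 0.40, adjusted p = 0.899). The groups overlapped for both. Per kb of exon Tff3 ranked 11 and 16 in GA3M2 and Zg16 ranked 5 and 9. Agr2, the isomerase that MUC2 folding requires, stood at 71591 and 69765 against 40907 and 38230.3, a change under 2-fold (-0.84, adjusted p = 0.287, DESeq2 adjusted p = 0.00234). The summed level of the 14 products was 685058 and 741138 in the controls and 356228 and 316289 in GA3M2.

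**Figure D2:**
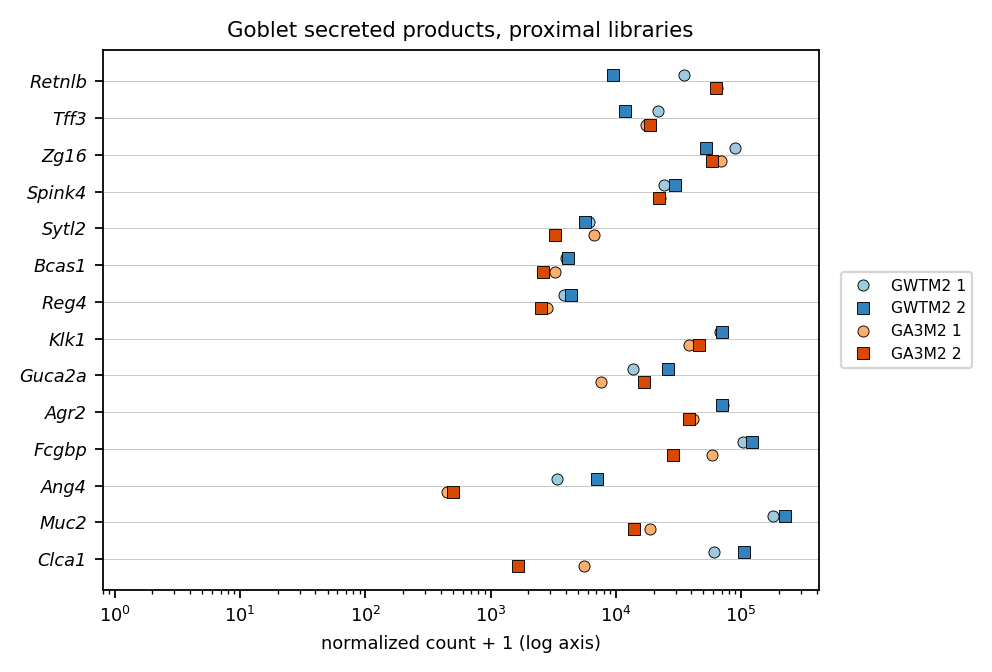
Normalized count + 1 (log axis) of 14 goblet secreted products in the 2 GWTM2 and 2 GA3M2 proximal libraries, 1 symbol per library, ordered by log2 fold change. Clca1, Muc2, Ang4 and Fcgbp lay lower in both GA3M2 libraries, Retnlb lay higher, and the groups overlapped for Tff3 and Zg16.

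None of 12 goblet transcription factors was called by limma at either threshold, by edgeR or by DESeq2. Without GA3M2 replicate 1 DESeq2 called 1 of them lower. Their median log2 fold change was -0.0003, and their summed level was 70064 and 69289 against 82351 and 73096. Atoh1, which sets the secretory fate, stood at 4698 and 6346 against 5409 and 3946 (-0.24, adjusted p = 0.636). Spdef, which drives goblet maturation, stood at 8678 and 6829 against 15244 and 10677, higher in each GA3M2 library but under 2-fold (0.73, adjusted p = 0.287, DESeq2 adjusted p = 0.109). The 2 most abundant factors were Creb3l1, which supports secretion (12298 and 12797 against 14451 and 10594), and Hnf4a, an enterocyte regulator (11859 and 9989 against 11121 and 10768), and both overlapped. Of 27 genes of protein folding in the endoplasmic reticulum, 0 were called by limma, edgeR or DESeq2, and 1 passed the unadjusted limits (Trib3, a kinase-like stress gene, at 8.23 and 6.85 against 27.2 and 25.8).

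Among the other mucins, the moves were smaller and of both signs. Of 15 mucin genes, 11 had a row and 9 were tested, and 5 of those had a positive log2 fold change. Muc5b, another gel-forming mucin, was low in all libraries, at 4.57 and 3.42 normalized counts against 52.3 and 21.2 (2.79, adjusted p = 0.208, DESeq2 adjusted p = 0.0392). Muc6, a gel-forming mucin of gastric glands, stood at 205 and 216 against 101 and 91.3 (-1.12, adjusted p = 0.177, DESeq2 adjusted p = 0.0389). Both passed DESeq2 and neither passed limma. Neither DESeq2 call held in any fit with 1 library left out, and Muc5b passed the filter only through GA3M2. Among the membrane-bound mucins, Muc4 stood at 8174 and 7039 against 5378 and 1849 (-1.27, adjusted p = 0.302, DESeq2 adjusted p = 0.153), Muc13 at 27054 and 23793 against 37291 and 33183 (0.47, adjusted p = 0.413), and Muc3 at 3971 and 8089 against 6719 and 19814 (1.03, adjusted p = 0.413). Muc1 (61.2 and 28.5 against 150.0 and 55.3), Muc3a (4669 and 5612 against 6054 and 7064) and Muc20 (51.2 and 46.8 against 58.4 and 24) were called by no tool. Muc16 and Muc19 were below the filter, with at most 5.71 and 10.1 in any library. Muc5ac, Muc12, Muc15 and Muc17 had no row.

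Of 31 tested genes that glycosylate or sulfate mucins, limma called 0, with 3 at an unadjusted p under 0.05 and past 2-fold, and DESeq2 called 2. Over all genes tested, 6.83% passed those unadjusted limits and DESeq2 called 3.23%. Gcnt1, which builds the core 2 branch of O-glycans, stood at 171 and 67.3 against 425 and 641 (2.27, adjusted p = 0.161, DESeq2 adjusted p = 0.000281). B4galnt2, which makes the Sda antigen, stood at 9553 and 8083 against 4584 and 2145 (-1.49, adjusted p = 0.208, DESeq2 adjusted p = 0.00476). With 1 library left out, the DESeq2 call of B4galnt2 held only without GA3M2 replicate 1. That of Gcnt1 was lost without GWTM2 replicate 2. B3gnt5, a starter of lacto-series glycolipids, stood at 1364 and 637 against 2377 and 1574 and passed only the unadjusted limits. The list's median was -0.05.

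The Clca genes went in opposite directions within 1 gene cluster. All 7 Clca genes with a row lie on the minus strand of chromosome 3 within 369.8 kb (chr3:144729677-145099443, GRCm38), where 9 genes of the table lie in all. From left to right, Clca3a1 (125 and 95.9 against 129 and 87.6), Clca3a2 (212 and 100.4 against 217 and 108) and Clca3b (6894 and 7446 against 6007 and 3061) were called by no tool. Next to them lie Clca4b, which rose, and Clca4a, at 297 and 1616 against 3170.4 and 5262 (2.56, adjusted p = 0.244, DESeq2 adjusted p = 0.314). Clca1, lower by DESeq2, follows, and Clca2, at 10.1 and 10.3 against 3.02 and 0.922, was below the filter. Clca4b and Clca4a were higher and Clca1 lower in each GA3M2 library than in each control. Summed over the family, the level was 68785 and 114108 against 19891 and 15988. Clca1 held most of it in the controls, and Clca3b, Clca4a and Clca4b most of it in GA3M2. Clca3a1 and Clca3a2 share 22.2% of the 50-base windows of the former, so their split is uncertain as well.

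**Figure D3:**
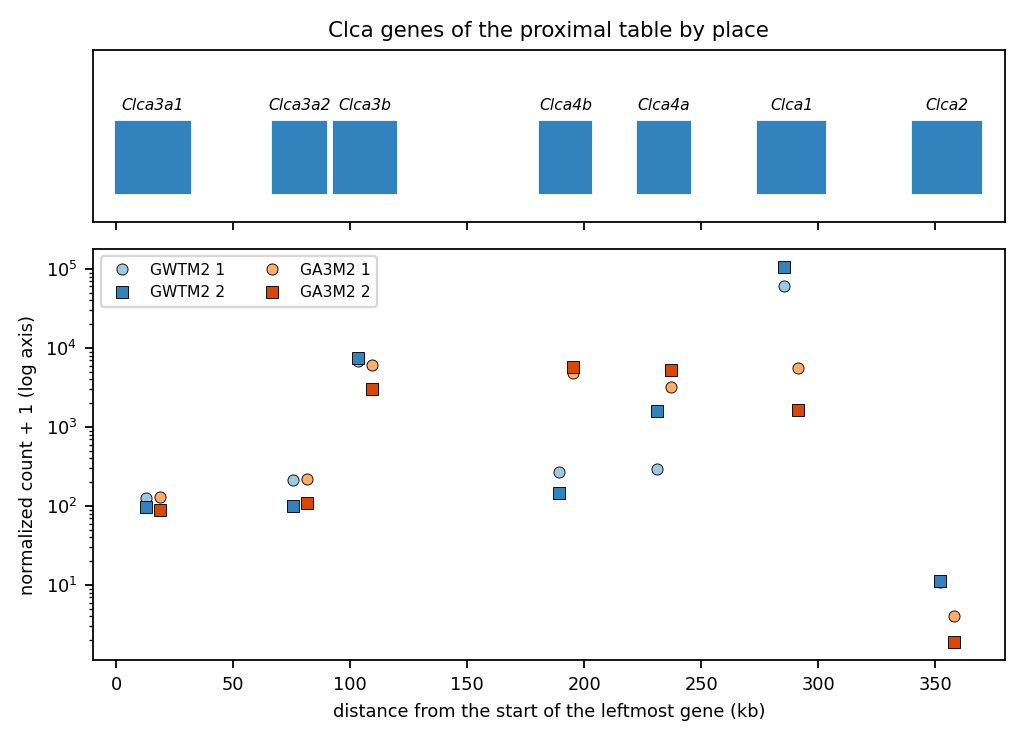
Clca genes of the proximal table by distance in kb from the start of the leftmost gene (upper panel, bars to scale), and their normalized count + 1 on a log axis in 4 libraries (lower panel, 1 symbol per library). Clca4b and Clca4a lay higher and Clca1 lower in GA3M2, while Clca3a1 and Clca3a2 overlapped between the groups.

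The 7 transport genes that the study singled out were all lower in each GA3M2 library than in each control. That list was chosen by the study on these samples, so its direction is no independent evidence. DESeq2 called 6 of them and limma 0, with 6 at an unadjusted p under 0.05 and past 2-fold. The DESeq2 count was 2 without GWTM2 replicate 2, 4 without GWTM2 replicate 1 or GA3M2 replicate 2, and 5 without GA3M2 replicate 1. The median log2 fold change was -1.62, and across all genes tested 26.1% were lower without overlap. Slc16a9, a monocarboxylate transporter, stood at 163 and 207 against 17.1 and 25.8 (-3.06, adjusted p = 0.0663, DESeq2 adjusted p = 2.13e-08). Slc26a3, the chloride-bicarbonate exchanger of surface colonocytes, stood at 1282 and 2547 against 421 and 752 (-1.68, DESeq2 adjusted p = 0.00147). Fxyd3, a regulator of the sodium pump, stood at 844 and 564 against 241 and 207 (-1.62, DESeq2 adjusted p = 3.13e-05). Slco3a1 (44.8 and 73 against 8.05 and 7.38), Sult1c2 (816 and 1059 against 337 and 380.0) and Chp2 (404 and 770.3 against 132 and 276) were also called by DESeq2. Slc16a10 (198 and 289 against 139 and 144) was not.

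Colonic ion transport as a wider group showed no common direction. Of 28 genes tested, DESeq2 called 4 lower and 1 higher, and the median was 0.03. Without GWTM2 replicate 2 it called 1 lower and 1 higher, without GA3M2 replicate 2 it called 2 and 1, and without GWTM2 replicate 1 it called 3 and 4. Slc9a3, the apical sodium-proton exchanger, stood at 1513 and 1554 against 3311 and 8264 (1.77, adjusted p = 0.195, DESeq2 adjusted p = 0.000138). Aqp4, a water channel, stood at 2658 and 2172 against 1381 and 944 (-1.07, adjusted p = 0.182, DESeq2 adjusted p = 0.00815). Of 16 tested markers of absorptive colonocytes, DESeq2 called 2 higher and 2 lower, against 5 higher and 0 lower without GA3M2 replicate 1, 0 and 1 without GA3M2 replicate 2, 0 and 3 without GWTM2 replicate 1, and 1 and 0 without GWTM2 replicate 2. Car1 stood at 39142 and 91255 against 14224 and 34825 (-1.43, adjusted p = 0.323, DESeq2 adjusted p = 0.055), Cyp2c55, a cytochrome of proximal colonocytes, at 5243 and 9696 against 1373 and 2738 (-1.88, DESeq2 adjusted p = 0.000256), and Ceacam20, a brush border adhesion protein, at 268 and 448 against 665 and 1226 (1.38, DESeq2 adjusted p = 0.0134). The summed level of these markers was 172870 and 260312 against 156310 and 278151, and those ranges overlapped.

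Both mitochondrial enzymes that open the urea cycle were called lower, Otc by DESeq2 alone, and Arg1 was called higher by DESeq2. Cps1, which makes carbamoyl phosphate from ammonia, fell from 192 and 146 to 2.01 and 4.61 normalized counts (-5.36, SE 0.52, adjusted p = 0.0471; chr1:67123026-67231259, +). Otc, which joins carbamoyl phosphate to ornithine, stood at 487 and 609 against 193 and 315 (-1.14, adjusted p = 0.219, DESeq2 adjusted p = 0.0377). Arg1, which splits arginine to ornithine and urea, stood at 99.6 and 97 against 252 and 549.7 (1.91, adjusted p = 0.161, DESeq2 adjusted p = 0.000321), and Arg2, its mitochondrial form, at 76.8 and 20.5 against 103 and 203. Of 13 genes of this list, 3 were called by DESeq2 (1 higher, 2 lower), and the other 10 were not. The median was 0.34. With 1 library left out, DESeq2 kept Otc only without GA3M2 replicate 2, and Arg1 only without GWTM2 replicate 1 or GA3M2 replicate 1.

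On the list of antimicrobial and acute-phase genes of the epithelium, every gene past a limit over all 4 libraries was higher. The bactericidal Ang4, which was kept on other lists, was called lower by DESeq2. Of 21 tested, limma called 0, 9 were higher and 0 lower at an unadjusted p under 0.05 and past 2-fold, and DESeq2 called 7 higher and 0 lower. Without GA3M2 replicate 2 DESeq2 called 3 higher, and 6 to 8 without another library, with 1 lower in the fit without GA3M2 replicate 1. The median log2 fold change was 1.11, against -0.003 over all genes. Over all genes tested, DESeq2 called 1.78% higher and 1.45% lower, and 3.17% and 3.66% passed the unadjusted limits. Lcn2 and Reg3a of this list passed the filter only through GA3M2, so they could not have been called lower. Saa1, an acute-phase lipoprotein, stood at 295 and 403 against 3197 and 6846 (3.76, adjusted p = 0.0506, DESeq2 adjusted p = 3.75e-21), with 31.1% of its 50-base windows shared with Saa2. Saa3, a relative, stood at 26.5 and 35.4 against 221 and 1043 (3.93, adjusted p = 0.141, DESeq2 adjusted p = 4.68e-10). Each was more than 5 times as high in either GA3M2 library as in either control. Lcn2, which binds bacterial siderophores, stood at 0.914 and 0 against 65.4 and 83 (adjusted p = 0.0663, DESeq2 adjusted p = 0.000327), and Reg3a, a C-type lectin, at 9.14 and 4.56 against 55.4 and 154 (DESeq2 adjusted p = 5.22e-05). The bactericidal lectins Reg3b (13608 and 1684 against 41495 and 76375) and Reg3g (5632 and 1016 against 13778 and 24967) also lay higher in each GA3M2 library, but the controls differed 5-fold or more and DESeq2 called neither.

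Neutrophil markers with a row were higher in GA3M2 beside these genes. Ly6g stood at 19.2 and 6.85 against 338 and 1550.5 (5.85, adjusted p = 0.0862, DESeq2 adjusted p = 4.03e-05). Of 11 markers on the list 4 had a row, and 3 were below the filter, S100a8 (0 and 0 against 15.1 and 10.1), S100a9 (0 and 0 against 9.06 and 13.8) and Ltf (4.57 and 4.56 against 15.1 and 15.7). The groups did not overlap for any of the 4, though the low values of these 3 were not tested. Over all genes tested, 26% were higher in GA3M2 without overlap. Cxcr2, Camp, Ngp, Retnlg, Csf3r, Mpo and Elane had no row. The summed level was 23.8 and 11.4 against 377 and 1590, most of it from Ly6g. The part of neutrophils in the defense genes was not tested.

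Genes of inflammatory signaling were mixed, and their few DESeq2 calls changed with 1 library left out. For interferon-stimulated genes these calls then went in both directions, depending on the library. Of 10 chemokine ligands tested, limma called 0, and DESeq2 called 2 higher, Cxcl1 (7.31 and 5.71 against 89.6 and 47, DESeq2 adjusted p = 0.000823) and Cxcl2 (0 and 0 against 58.4 and 34.1, DESeq2 adjusted p = 0.000218), both of which attract neutrophils. Both passed the filter only through GA3M2, so they could not have been called lower. Tnf stood at 89.6 and 53.6 against 227 and 219.5 (1.67, adjusted p = 0.152, DESeq2 adjusted p = 0.00349), while Traf1, on the same list of 18 tested NF-kB genes, fell, and Bcl3, a nuclear regulator of NF-kB (713 and 476 against 1553 and 929), passed the unadjusted limits only. Of 17 interleukin receptors and IL-1 family genes, DESeq2 and limma called 0, and 2 passed the unadjusted limits, Il1rn (227 and 381 against 457 and 1092) and Il18 (221 and 132 against 278 and 659). Interferon-stimulated genes had a median of -0.35 over 30 tested, 7 of them positive. DESeq2 called 2 of them lower, Oas2 (197 and 477 against 51.3 and 31.4, adjusted p = 7.3e-07 by DESeq2) and Ifi27 (591 and 815 against 309 and 328, 0.00488 by DESeq2), and Stat2 (1281 and 1623 against 891 and 568) passed the unadjusted limits as well.

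Among genes of epithelial repair and squamous-like epithelium, nearly all past a limit over all 4 libraries were higher. Of 31 tested, limma called Spp1 higher, DESeq2 called 10 higher and 1 lower, and 13 were higher and 1 lower past the unadjusted limits. Over all genes tested, DESeq2 called 1.78% higher and 1.45% lower, and 3.17% and 3.66% passed the unadjusted limits. Spp1 passed the filter only through GA3M2. The median of the list was 0.97, and 25 of its genes were positive. These values rested on GA3M2 replicate 2. Without it DESeq2 called 6 higher and 3 lower, the unadjusted limits passed 9 and 4, and the median was 0.55, against 15 higher, 0 lower and a median of 1.57 without GA3M2 replicate 1. Cldn4, a tight junction claudin of the epithelial surface, stood at 317 and 382 against 2526 and 6016 (3.48, adjusted p = 0.0604, DESeq2 adjusted p = 4.44e-17). It was the only one of 14 claudins tested that DESeq2 called, and their median was 0.05. Anxa1, an annexin of wound repair, stood at 1094 and 1075 against 2678 and 5917 (1.88, adjusted p = 0.152, DESeq2 adjusted p = 1.09e-05). Areg, a growth factor for the EGF receptor, stood at 402 and 217 against 917 and 1782 (2.11, adjusted p = 0.152, DESeq2 adjusted p = 3.38e-05). In each of these genes GA3M2 replicate 2 was about 2 times as high as replicate 1.

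Within the BMP pathway, the targeted receptor itself was called by no tool in the sorted cells. Bmpr1a stood at 1966 and 2131 in the controls and at 1572 and 1336 in GA3M2 (-0.50, SE 0.18, adjusted p = 0.281, DESeq2 adjusted p = 0.268), as measured in epithelial cells that the deletion was not aimed at. Reads over the deleted part of the gene cannot be seen in a table of whole genes, and Gli1 had no row. Smad4, the shared mediator, stood at 2027 and 1780.2 against 2638 and 2692 (0.49, adjusted p = 0.275). Of 15 pathway genes tested, DESeq2 called 1 higher and 1 lower, against 1.78% and 1.45% of all genes tested. The ligand Bmp8b was higher (21.9 and 21.7 against 147 and 308, adjusted p = 2.7e-08 by DESeq2 and 0.0862 by limma) and the ligand Bmp7 lower (453 and 572 against 265 and 144, 0.0145 by DESeq2 and 0.205 by limma). With 1 library left out, the DESeq2 call of Bmp8b held each time, and that of Bmp7 only without GA3M2 replicate 1. Bmp1 (58.5 and 89 against 149 and 157), a protease, and Acvr2b (183 and 152 against 108 and 51.7), a type II receptor, passed the unadjusted limits only. None of 8 tested BMP target genes was called by limma at either threshold, by edgeR or by DESeq2, with a median of 0.26. Id1 stood at 1608 and 1820.2 against 1604 and 2804, and Id3 at 1046 and 1401 against 811 and 1429.7, both with overlap.

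**Figure D4:**
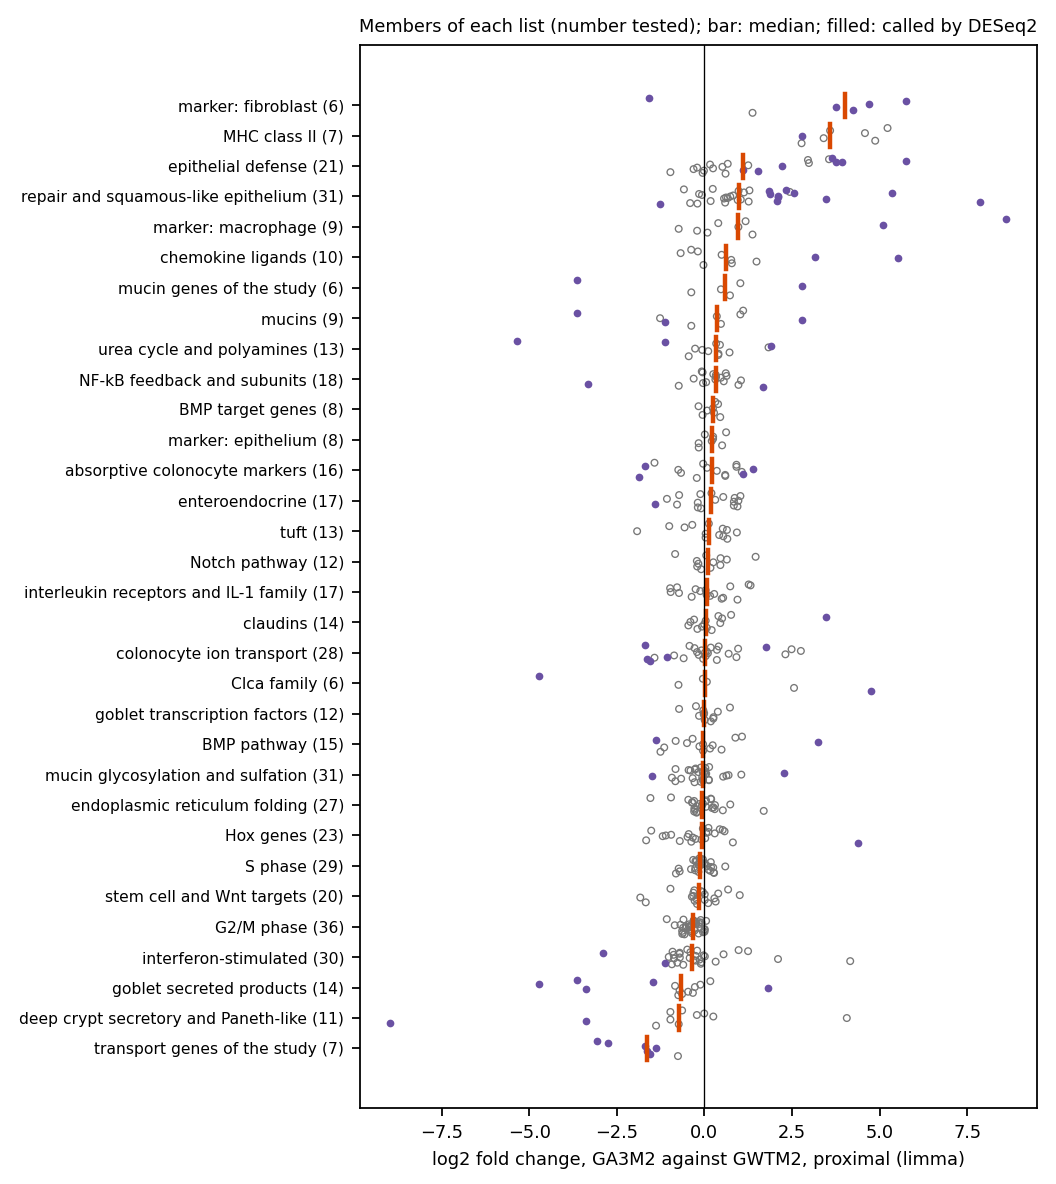
Limma log2 fold change, GA3M2 against GWTM2, of the tested members of each gene list with at least 5 of them, 1 point per gene, filled where DESeq2 called it, with the list's median as a bar and the number tested in brackets. MHC class II, epithelial defense, repair genes and the fibroblast and macrophage markers have medians near or above 1, and the transport genes of the study lie wholly below 0. Fibroblast matrix genes near 0 in the controls passed the filter only through GA3M2. Without GA3M2 replicate 2 the fibroblast median was -0.21 over 2 tested genes, and the macrophage median was 0.29.

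Other epithelial programs showed few calls, which also changed with 1 library left out. Without GA3M2 replicate 1 DESeq2 called 4 G2/M genes lower, 2 S phase genes lower, 1 Notch gene lower, and 2 Hox genes higher and 3 lower. Of 20 stem cell genes and Wnt targets, limma, edgeR and DESeq2 called 0, and 3 passed the unadjusted limits. Myc passed them as higher (598 and 448 against 1026 and 1059), and DESeq2 gave it an adjusted p of 0.00963 but a fold under its limit. Msi1 (64.9 and 77.6 against 20.1 and 23.1) and Tnfrsf19 (117 and 162 against 70.5 and 20.3) passed the unadjusted limits as lower. Of 36 G2/M genes, 23 were lower in each GA3M2 library than in each control, against 26.1% of all genes tested. Of the same 36, 0 were higher without overlap, against 26% of all genes, and the median was -0.34. Only 1 passed the unadjusted limits (Mki67, 4799 and 4083 against 3039 and 1453), and limma, edgeR and DESeq2 called 0. Of 29 S phase genes none passed the limits of limma, edgeR or DESeq2, unadjusted ones included, with a median of -0.12 (Pcna 1974 and 2234 against 2289 and 2479, Mcm6 1876 and 2254 against 1961 and 1592). The same held for 12 Notch pathway genes, with Hes6 at 1948 and 1713 against 2811 and 2882 and Hes1 at 1184 and 1259.8 against 1265 and 2234. Among 17 enteroendocrine genes, DESeq2 called Sct, the hormone secretin, lower (195 and 162 against 65.4 and 67.3, adjusted p = 0.0112 by DESeq2), and Pyy, peptide YY, stood at 65.8 and 59.3 against 103 and 160.5. Of 13 tuft cell genes, DESeq2 called 0, and Plcb2 (52.1 and 53.6 against 23.1 and 7.38) passed the unadjusted limits. Among 23 Hox genes, DESeq2 called Hoxd9 higher (4.57 and 0 against 44.3 and 51.7, adjusted p = 0.0027 by DESeq2), and Hoxb3 (266 and 257 against 153 and 95.9) and Hoxb4 (308 and 394 against 200.3 and 115) passed the unadjusted limits as lower. Beside Mptx1 and Ang4, 1 of the 11 tested genes of deep crypt secretory cells passed the unadjusted limits. It was Mmp7, a matrix metalloprotease, at 413 and 21.7 against 1932 and 1356, with the controls far apart. Of the 11, 2 had a positive log2 fold change, and the median was -0.73. Without overlap, 7 were lower (26.1% of all genes tested) and 1 was higher (26%).

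Stromal markers were low but not level between the libraries. Matrix genes of fibroblasts, collagens and the proteoglycan decorin (Dcn), were near 0 in the controls, higher in GA3M2 replicate 1 and highest in replicate 2, as for Col1a1 (0.914 and 0 against 28.2 and 191, DESeq2 adjusted p = 0.00028), Col1a2 (0 and 2.28 against 18.1 and 115) and Dcn (2.74 and 0 against 21.1 and 60). Of 6 fibroblast markers tested, DESeq2 called 4 higher and limma 0, while Pdgfrb, a receptor of pericytes and fibroblasts, was called lower (266 and 224 against 101 and 65.5, DESeq2 adjusted p = 0.00342). Without GA3M2 replicate 2 only 2 of the 6 reached the filter and DESeq2 called neither, and without GWTM2 replicates 1 and 2 it called 1 and 2 higher. The summed level was 304 and 273 against 248 and 653, with Gli1, Lum and Thy1 without a row. Acta2 of smooth muscle followed the collagens (1.83 and 0 against 17.1 and 208), and the smooth muscle sum was 18.3 and 29.7 against 56.4 and 332. The sums of T cell markers (74.0 and 109.6 against 65.4 and 61.8), B and plasma cell markers (41.1 and 26.2 against 45.3 and 53.5), endothelium (92.3 and 136 against 105 and 97.8), glia and neurons (42.0 and 33.1 against 26.2 and 29.5) and red blood cells (7.31 and 6.85 against 11.1 and 45.2) stayed low in all libraries.

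The distal colon of the same genotypes was set beside the proximal values. No library is shared between the segments, and whether a mouse gave both is not stated. In the distal colon limma called 0 of 13082 genes (4.12% passed the unadjusted limits) and DESeq2 240 (1.83%), and GWTM2 replicate 1 was a library with Xist there too. All 12 genes called in the proximal colon had the same sign in the distal colon. DESeq2 called 238 genes higher and 193 lower in the proximal colon, and 205 and 174 of them were tested in the distal. Of these, 205 of 205 higher genes and 169 of 174 lower genes had the same sign. Genes near 0 in distal controls, such as Lyz2 and Spp1 of the 12, pass the distal filter only through GA3M2, so their sign was fixed. The share of same signs over all genes is not given here. Muc2 stood at 41156 and 109532 against 16015 and 12294 in the distal libraries, and Mptx1 at 27159 and 113489 against 574 and 327. Mptx1 was thus far higher in distal than in proximal controls in the 2 separately normalized tables. Lyz2 (5.76 and 0 against 362 and 401), Spp1 (0 and 0 against 90.0 and 198) and Apoe (72 and 78.7 against 396 and 572) were near 0 or low in distal controls too. Clca4b stood at 1312 and 109 against 5601 and 5190.4 and Clca1 at 102568 and 309850.0 against 19496 and 6969.

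**Figure D5:**
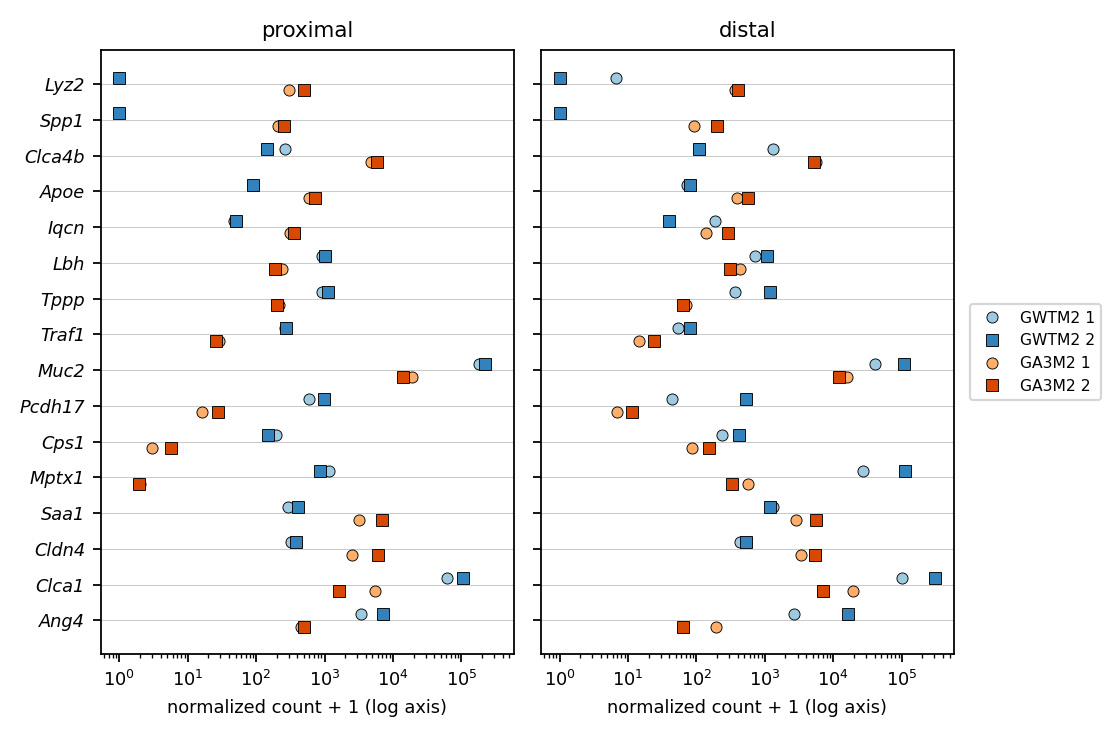
Normalized count + 1 (log axis) of the 12 genes called by limma in the proximal colon and of Saa1, Cldn4, Clca1 and Ang4, in the proximal (left) and distal (right) libraries, 1 symbol per library. In each of the 12 the GA3M2 group had the same direction in both segments; Iqcn overlapped between groups in the distal colon.

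The difference between the segments was tested as an interaction of segment and genotype over 13191 genes. At an adjusted p under 0.05 limma and edgeR called 0 genes, 1.4% passed an unadjusted p under 0.05 with limma, and DESeq2 called 3 (0.0227%). Cps1 was among those 3, at 192 and 146 against 2.01 and 4.61 in the proximal and 232 and 416 against 84.2 and 151 in the distal colon (difference of log2 fold changes -4.20, DESeq2 adjusted p = 0.00177). For the other 11 called genes no tool gave a difference between the segments.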

How the data were processed

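RNA from sorted Muc2+ cells was sequenced by the study. Per the labels and the study's methods, the authors mapped reads uniquely to mm10 with STAR 2.5.3 and normalized with DESeq2 1.28.1; the program that counted reads on genes, its annotation and its strand setting are not given in the sources used here. The deposited values are a normalized signal per gene, gene counts divided by 1 size factor per library. Whole reads were recovered by division (100% of values within 0.1 of a whole number), and a count of 0 allows 3 reads (counting error only). The table has 15068 genes, 17 with names that had turned into dates; 14861 matched GENCODE M21 by symbol. Promoters come from RefSeq, which had 11 of the 12 called genes.

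Genes with a mean of at least 10 were fitted on log2(value + 1) with limma 3.58.1 (R 4.3.3, trend), Benjamini-Hochberg adjusted over all of them. Fold changes on this scale understate the change of low genes. edgeR 4.0.16 and DESeq2 1.42.0 on recovered reads were alternatives, with other pseudocounts, filters and scaling and each library left out. Scripts were tested on simulated data. The comparison, gene lists and named genes were chosen with earlier results of these data known. The naming rule took every called gene, the 10 largest edgeR calls each way, all mucins, Clca and transport genes, up to 4 members of each other list past the unadjusted limits (or the 2 most abundant), and the targeted and reporter genes; some markers it took are given as list sums. Other genes (further goblet products, transcription factors, defense, repair and marker genes, and those at 0 in a group) were chosen after their values were seen. Antisense partners cannot be told apart without strand.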

Additional observations from a re-analysis of the deposited data

Results flagged for a closer look

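In 3 genes the effect of stromal Alk3 loss differed between the proximal and the distal colon by the interaction term of DESeq2, and limma gave none of them an adjusted p under 0.05. Lamb1, a laminin chain, stood at 157 and 264 normalized counts in proximal controls against 48.3 and 47.0 in GA3M2, and at 13.4 and 10.9 against 60.7 and 84.3 in the distal colon. The log2 fold changes differed by -4.72 (DESeq2 adjusted p = 7.23e-08, limma adjusted p = 0.306), with opposite directions and no overlap in either segment. Cps1, described above, differed by -4.20 (DESeq2 adjusted p = 0.00177, limma adjusted p = 1), and was lower in both segments. Rab37, a GTPase of secretory granules, stood at 567 and 621 against 1022 and 695 in the proximal colon and at 72.0 and 72.1 against 342 and 442 in the distal colon, a difference of -1.92 (DESeq2 adjusted p = 0.0129, limma adjusted p = 1).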

How the results depend on the processing

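Against 12 genes called by limma, a pseudocount of 10 gave 27, no filter 20, a mean of at least 50 gave 7, a pseudocount of 0.1 and upper-quartile rescaling 8 each (without Cps1, Iqcn, Lbh and Muc2), DESeq2 431 and the unadjusted limits 911. Leaving out 1 library gave 1 to 1036 with limma (the lone library of a group is assumed to vary like the other group; Cps1, Lbh and Traf1 were lost without either control, Muc2 and Tppp without GWTM2 replicate 2, and all but Mptx1 without GA3M2 replicate 2), with edgeR 84 and 46 (without GWTM2 replicates 1 and 2) and 1369 and 88 (without GA3M2 replicates 1 and 2), and with DESeq2 210, 124, 1026 and 207 in that order; all 12 were called in each of these edgeR and DESeq2 fits, which were chosen after seeing the data. A replicate block gave 699 with limma and 762 with edgeR (added after seeing the data), with all 12 among the 699, and 4 in the distal colon. The numbers pair only 2 libraries per group, the labels give them no shared litter or batch, and same-numbered deviations correlated at 0.15 (proximal) and 0.30 (distal). Genes past the unadjusted limits numbered 559 at a mean of at least 50 and 592 to 1789 with 1 library left out. In the distal colon limma called 0, DESeq2 240 and the unadjusted limits passed 539, with 0 to 638 as single libraries were left out (638 without GWTM2 replicate 1, 319 without GWTM2 replicate 2). For the segment difference DESeq2 called 3 and 185 passed an unadjusted p. The cause of these shifts was not tested, other than that a leave-one-out fit has fewer libraries. Some genes called by no tool changed direction when 1 library was left out: log2 fold changes ranged from -0.092 to 0.71 for Id1, -0.58 to 0.24 for Id3, -0.50 to 0.27 for Zg16, -0.28 to 0.61 for Tff3, -0.999 to 0.25 for Muc20, -0.47 to 0.60 for Clca3a2, -0.32 to 0.23 for Clca3a1, -0.24 to 0.20 for Creb3l1, -0.12 to 0.13 for Hnf4a, -1.02 to 0.95 for Car4 and -0.52 to 10.02 for Ddx3y. With 2 libraries per group, 1 control of the other sex and 1 GA3M2 library apart from the rest, a missed limit does not show that a gene was the same in both groups.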

Other observations

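MHC class II genes were higher in both proximal GA3M2 libraries than in either control, but the controls were far from each other. The summed level of the 7 genes with a row was 7926 and 266 normalized counts in the controls against 32375 and 24037 in GA3M2. Of the 7, 6 passed the unadjusted limits, DESeq2 called 1 (H2-DMa, 223 and 44.5 against 670.3 and 721, DESeq2 adjusted p = 0.00196), and limma called 0. DESeq2 called 7 without GWTM2 replicate 1, 5 without GWTM2 replicate 2, and 0 without either GA3M2 library. Cd74, the invariant chain, stood at 4421 and 61.6 against 18064 and 13172, and H2-Aa at 547 and 12.6 against 3602 and 2885. In the distal colon the order was another: Cd74 stood at 15900.2 and 141 in the controls against 5983 and 5244 in GA3M2, so 1 control library lay above and 1 below.

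In 22 genes both controls had 0 reads while the GA3M2 mean was at least 20 normalized counts, and in 6 genes it was the reverse; these genes were picked after their values were seen. Beside Lyz2 and Spp1, the 22 include the macrophage genes Chil3 (35.2 and 111 in GA3M2) and Gpnmb (43.3 and 51.7), and the matrix and stromal genes Tnc (93.6 and 33.2), Grem1, a secreted BMP antagonist (66.4 and 22.1), and Col5a2 (8.05 and 129). Chil3 and Gpnmb were at 0 in both distal controls as well, against 89.1 and 88.2 and against 38.2 and 56.6 in distal GA3M2. What gave these transcripts in sorted epithelial cells was not tested.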
